A study of Mus musculus with 15 samples.

Results

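The genes described here are those whose symbol begins with Nduf, the nuclear genes named after subunits and assembly factors of respiratory complex I. They were taken by name from the table of the series, without pseudogene entries, which gave 46 of 30386 gene identifiers. Complex I (NADH:ubiquinone oxidoreductase) is the entry point of electrons from NADH into the mitochondrial respiratory chain, and it pumps protons across the inner membrane. It is L-shaped: a peripheral arm in the matrix binds NADH and carries the iron-sulfur clusters, and a membrane arm holds the proton pumps. The core subunits do the chemistry, those of the peripheral arm being encoded in the nucleus and those of the membrane arm in mitochondrial DNA. The supernumerary (accessory) subunits are all nuclear and surround the core, and assembly factors help build the complex without staying in it. Neurons depend heavily on respiration, and complex I defects are a known cause of Leigh syndrome, a disease of the brain.

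Expression was measured in mouse brain by QuantSeq, which reads the 3′ ends of polyadenylated RNA. The 15 libraries formed 3 groups of 5. WT_PBS were wild types given phosphate-buffered saline, Het_PBS were Tbx1+/- mice, which carry 1 mutant copy of the T-box transcription factor gene Tbx1, given saline, and Het_B12 were Tbx1+/- mice given vitamin B12 at 20 mg/kg in saline. All 3 groups were injected intraperitoneally 2 times a week for 4 weeks, starting at an age of 4 weeks. The vitamin in wild types is not analysed here, so an effect of the vitamin can be read in heterozygotes only. The sources used here do not give the strain, the sex or the part of Tbx1 missing from the mutant allele. The labels speak of both whole brain and a brain hemisphere, and of both Qiazol and RNeasy kits for the RNA, with no record of how these fall over the libraries.

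Totals ran from 1683258 to 2746122 counts per library, so that 3 reads, taken as the floor of detection, were worth 1.09 to 1.78 CPM (counts scaled to library size). Tbx1 had 3 reads in WT_PBS, 3 in Het_PBS and 1 in Het_B12, each summed over 5 libraries, which is too few to check the genotype labels. Neuron markers summed to 6362 ± 478 CPM in WT_PBS, 6283 ± 286 CPM in Het_PBS and 6409 ± 228 CPM in Het_B12 (SD, n = 5 per group), and all 10 of them had enough reads to be tested. WT_PBS 3 stood apart from the other wild types, its astrocyte markers lying at a median log2 difference of -0.42 from the wild-type mean against -0.02 to 0.21 in the other 4. The labels put the same number on both Het_PBS 5 and Het_B12 1. Per degree of freedom, the chi-square between the counts of that pair was 10.28, against 3.03 to 8.28 for pairs within a group. The pair differs in treatment and no other pair across groups was compared by this chi-square, so a shared animal was not tested. In the correlations across groups used below for replicate numbers, the pair stood at -0.0002, against -0.09 to 0.11 for same-numbered pairs. Both libraries were kept, and neither was treated as a duplicate. Values without these libraries are given where they change a call, a count or a description.

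Promoters of 4 of the 8 genes whose levels changed with the vitamin are shown, 3 of them chosen because they hold the same letters close to the start. RefSeq windows on GRCm38.p6, 300 bases each (250 before and 50 after the start of transcription), were found for 40 of the 46 genes, 42 windows in all. Ndufa2, the gene with the largest change, had no window. Windows of Ndufb8, Ndufc1 and Ndufs4, which fell, and of Ndufs3, which rose, are printed 5′ to 3′ on the strand of the gene, all on the minus strand. They lie at chr19:44555393-44555692, chr3:51408906-51409205, chr13:114388045-114388344 and chr2:90904672-90904971, in this order. Capitals mark the motifs searched: AAGATGGC (YY1), GGGCGG (Sp1) and CCGGAAG (ETS family), each on both strands.

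Ndufb8: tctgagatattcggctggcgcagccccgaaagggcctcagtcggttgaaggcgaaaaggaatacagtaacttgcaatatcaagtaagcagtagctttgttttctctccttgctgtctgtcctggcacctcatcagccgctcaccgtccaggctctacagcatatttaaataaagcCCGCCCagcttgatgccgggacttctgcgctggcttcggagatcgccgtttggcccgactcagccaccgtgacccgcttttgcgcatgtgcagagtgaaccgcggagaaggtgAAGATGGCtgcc
Ndufc1: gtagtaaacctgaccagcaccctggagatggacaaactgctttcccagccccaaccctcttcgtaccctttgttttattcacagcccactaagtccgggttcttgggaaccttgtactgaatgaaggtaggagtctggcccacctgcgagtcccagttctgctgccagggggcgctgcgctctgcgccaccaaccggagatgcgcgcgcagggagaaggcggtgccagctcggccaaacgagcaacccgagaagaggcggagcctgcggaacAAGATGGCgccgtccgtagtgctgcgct
Ndufs4: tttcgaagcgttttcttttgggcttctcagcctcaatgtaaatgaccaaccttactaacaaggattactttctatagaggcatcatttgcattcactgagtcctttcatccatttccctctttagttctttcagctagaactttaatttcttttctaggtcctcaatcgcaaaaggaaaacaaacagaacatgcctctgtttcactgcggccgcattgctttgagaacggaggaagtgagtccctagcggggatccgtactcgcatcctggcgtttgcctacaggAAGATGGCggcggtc
Ndufs3: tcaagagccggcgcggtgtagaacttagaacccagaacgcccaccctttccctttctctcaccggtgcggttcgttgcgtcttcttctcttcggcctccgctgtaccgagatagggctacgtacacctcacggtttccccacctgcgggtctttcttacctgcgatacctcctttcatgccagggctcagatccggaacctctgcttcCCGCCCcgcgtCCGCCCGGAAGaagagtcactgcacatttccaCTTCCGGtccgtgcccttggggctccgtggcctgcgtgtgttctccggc

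The 3 printed windows of genes that fell hold the YY1 letters 39, 23 and 36 bases after the start in Ndufb8, Ndufc1 and Ndufs4. YY1 is a zinc-finger factor whose motif is common just downstream of the start of housekeeping genes. Over all Nduf windows, 8 of 42 (19.0%) held it, against 2.75% of all 32851 RefSeq windows of this length. The others were Ndufa3, Ndufa9, Ndufaf8, Ndufs6 and Ndufs7, and all 8 matches lay 11 to 39 bases after the start. The windows of Ndufb2, Ndufb11 and Ndufc2, which also fell, held none of the 5 motifs searched. The letters GCATGCGC of NRF1, a regulator of nuclear genes for mitochondrial proteins, stood in 5 windows (11.9%, against 2.71% of all). The ETS letters stood in 6 (14.3%, against 8.86%) and the Sp1 letters in 22 (52.4%, against 35.7%). TCAAGGTCA (oestrogen-related receptors, ERR) stood in 0, against 0.423% of all. Matches on both strands at 1 place count as 1 window, and in Ndufs3 an Sp1 and an ETS match overlap, which shows as 1 longer run of capitals. A match is a run of letters, and binding was not measured.

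Levels of the 46 genes spanned a wide range in these brains. They are counts of 3′ ends and are not divided by length, since 1 transcript gives 1 end whatever its length. Ndufa5, a subunit of the peripheral arm, had the highest mean, 526 CPM over the 15 libraries, followed by Ndufb8 of the membrane arm at 445 CPM. Ndufa4l2, the gene of a paralog of Ndufa4, had the lowest, 0.761 CPM, with 27 reads in all, and it was the 1 gene that did not pass the filter on low counts. Its libraries lay between 0 and 1.97 CPM in all 3 groups, at or near the floor, and no difference was detectable at this depth. Ndufs5, a membrane-arm subunit, was next at 8.53 CPM, with 3.71 to 14.6 CPM across libraries.

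By role, the 7 nuclear core subunits kept within a 4.85-fold range, from Ndufs3 at 41.3 to Ndufv1 at 201 CPM, with a median of 121 CPM. The 10 supernumerary subunits of the peripheral arm had a median of 173 CPM and a 7.44-fold range, and the 19 of the membrane arm 178 CPM and a 52.2-fold range. The 8 assembly factors were the scarcer transcripts, with a median of 29.9 CPM, from Ndufaf6 at 9.62 to Ndufaf8 at 62.3 CPM. Ndufa4, which despite its name is now placed in complex IV (cytochrome c oxidase), stood at 98.6 CPM. Of the 36 subunit genes tested, 28 had a mean of at least 100 CPM. The 3′ end counts of these subunits differed by up to 61.7-fold. This spread and the 52.2-fold range of the membrane arm rest on Ndufs5 as the lowest gene, and its count is uncertain. BC002163 matched 186 of its last 300 bases at 100% identity. Next after it were Ndufs3 at 41.3 CPM among all subunits and Ndufb6 at 62.5 CPM in the membrane arm, both also among the uncertain counts below.

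Not every count is certain. Of the 46 genes 22 overlap another annotated gene, 11 of them a gene with more than 10% as many reads, in each case on the opposite strand, and the strand setting of the counting is not given. Among them are Ndufa4l2, Ndufaf2, Ndufaf3, Ndufb2, Ndufb5, Ndufb6, Ndufb11, Ndufs1, Ndufs3 and Ndufs6. A near-identical 3′ end in another annotated gene (95% identity over 100 or more of the last 300 bases) was found for Ndufaf2, Ndufb3, Ndufb11, Ndufs3, Ndufs5 and Ndufv3.

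**Figure D1:**
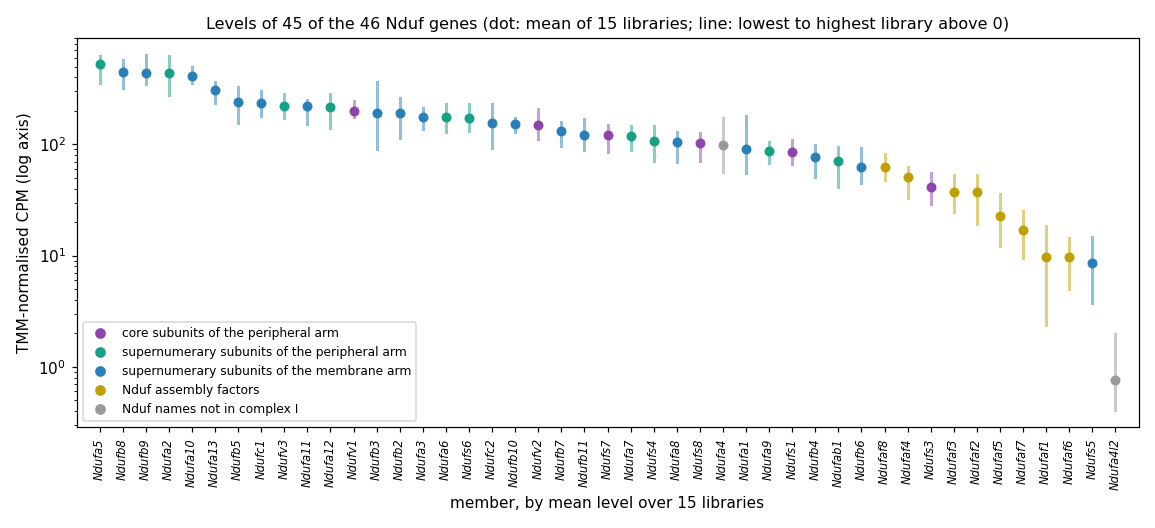
TMM-normalised CPM (log axis) of 45 of the 46 genes, ordered by mean level over 15 libraries, with a line from the lowest to the highest library above 0 and colours for the 5 classes. Assembly factors lie between 9.62 and 62.3 CPM, and most subunits lie above them.

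Heterozygotes were first set against wild types under saline, to ask whether these genes respond to having 1 Tbx1 copy less. No Nduf gene passed edgeR's quasi-likelihood test at a Benjamini-Hochberg adjusted p under 0.05, which is the threshold used throughout, and 0 of all 11718 genes tested did (background 0%). At an unadjusted p under 0.05 there were 7 of the 45 tested Nduf genes (15.6%), all on the higher side, against 879 of all genes (7.5%). DESeq2 and limma-voom also called 0. Of the 45, 34 lay above 0 (75.6%, against 48.8% of all genes), with a median log2 fold change of 0.10 against -0.01 for all genes. No Nduf gene had groups free of overlap (background 0.393% higher and 0.444% lower).

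The smallest adjusted p among them was 0.523 and belonged to Ndufb3, a small membrane-arm subunit (log2 fold change 0.59 ± 0.19 SE), and to Ndufv3, an accessory subunit at the NADH-binding tip (0.36 ± 0.12). Both were picked for these p-values after they were seen. In WT_PBS the Ndufb3 libraries stood at 135, 243, 174, 91.2 and 132 CPM, and in Het_PBS at 199, 199, 208, 199 and 362 CPM. The value of 362 belongs to Het_PBS 5 and the groups overlapped. Without that library the log2 fold change was 0.39 ± 0.18 (adjusted p = 0.822 by edgeR). Its count is among the uncertain ones. Without a filter on low counts Ndufb3 passed, the 1 alternative that gave a call here. In that fit 40 of all 20468 genes passed. The core subunits did not move as a block, with 4 of 7 above 0 and 3 below (median 0.03). The supernumerary subunits were above 0 in 8 of 10 genes of the peripheral arm (median 0.15) and 17 of 19 of the membrane arm (median 0.16).

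Vitamin B12 in heterozygotes was examined by comparing Het_B12 with Het_PBS. Complex I transcripts lay lower with the vitamin: 39 of the 45 tested genes were below 0 (86.7%, against 48.6% of all genes), and the median log2 fold change was -0.24 against 0.01 for all genes. In this bulk tissue fewer cells of a type and less RNA per cell cannot be told apart. By edgeR's test 7 genes fell (15.6% of 45, background 3.79% of all genes) and 1 rose (2.22%, background 3.47%), while 7.26% of all genes changed in either direction. At an unadjusted p under 0.05 there were 20 of the 45 (44.4%, background 21.7%). Those that fell were Ndufa2, Ndufs4, Ndufb2, Ndufb8, Ndufb11, Ndufc1 and Ndufc2, and Ndufs3 rose. Het_B12 lay wholly below Het_PBS for 10 genes (22.2%, background 4.07%) and wholly above for 1, Ndufs3 (background 3.75%). The summed level of all 46 genes was 7232 ± 741 CPM in WT_PBS, 7754 ± 386 CPM in Het_PBS and 6320 ± 408 CPM in Het_B12 (SD, n = 5 per group). Without both Het_PBS 5 and Het_B12 1 it was 7651 ± 358 CPM in Het_PBS and 6373 ± 451 CPM in Het_B12 (SD, n = 4 per group), and without WT_PBS 3 it was 7437 ± 673 CPM in WT_PBS (SD, n = 4). All 5 Het_B12 libraries, at 5703 to 6643 CPM, lay below the lowest Het_PBS library at 7176 CPM. The lowest wild types, WT_PBS 3 at 6414 and WT_PBS 4 at 6548 CPM, fell inside the Het_B12 range.

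**Figure D2:**
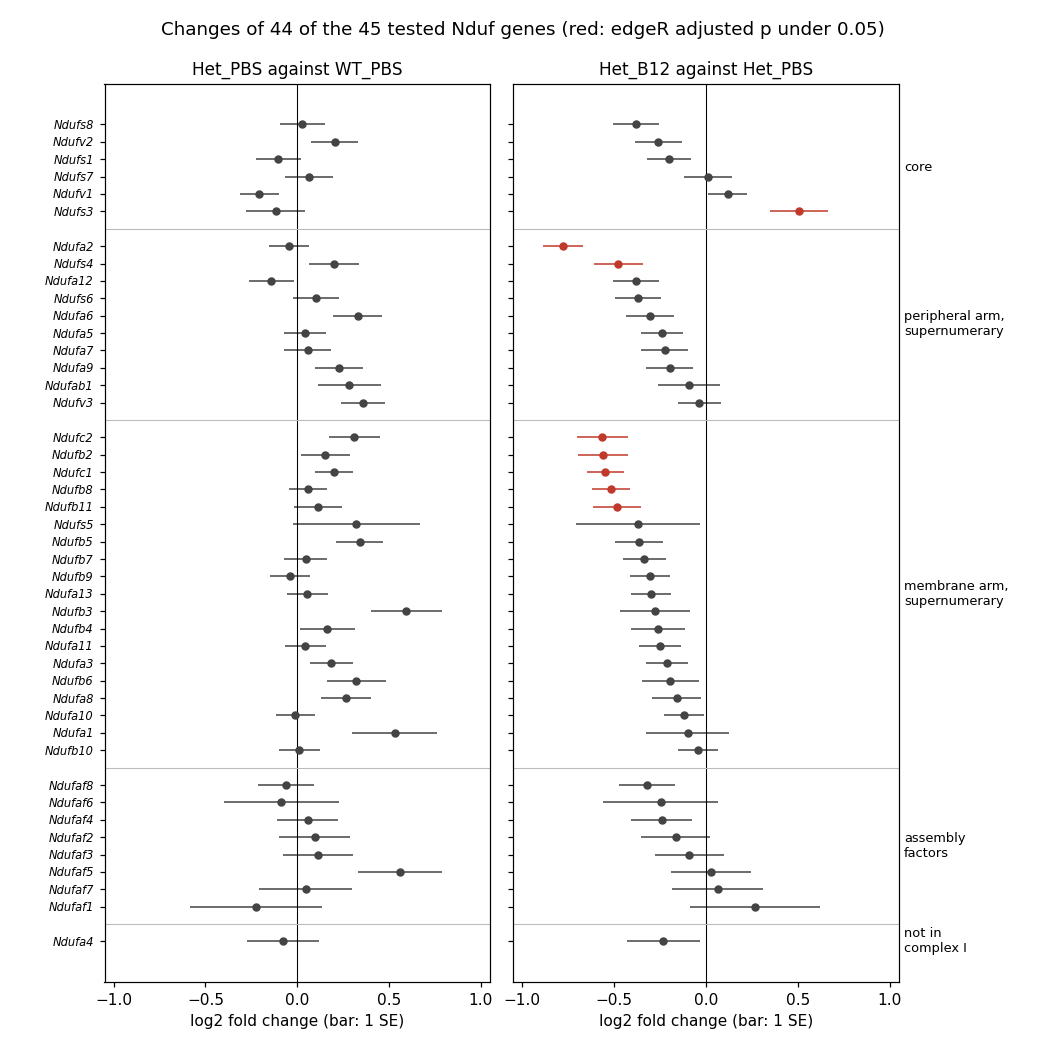
Log2 fold change of 44 of the 45 tested genes with 1 SE, by class, for Het_PBS against WT_PBS (left) and Het_B12 against Het_PBS (right). On the left no gene passed; on the right 7 genes fell and Ndufs3 rose (red), and the 29 supernumerary subunits lie below 0 in this fit, which 11 of 19 in the membrane arm and 7 of 10 in the peripheral arm do with a transcript length offset.

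The supernumerary subunits of the peripheral arm were below 0 in 10 of 10 genes, and 2 of them fell (20%, background 3.79%, median -0.27). With an offset for transcript length 7 were below 0 and 3 above (median -0.09), and without both Het_PBS 5 and Het_B12 1 there were 9 below. Ndufa2, a small subunit with a thioredoxin-like fold, showed the largest change of the 45. It lies on GRCm38 chromosome 18, 36742332 to 36744557, minus strand. Its level was 594, 481, 435, 476 and 618 CPM in the WT_PBS libraries, 484, 445, 607, 530 and 458 CPM in Het_PBS and 283, 276, 289, 300 and 322 CPM in Het_B12. The vitamin libraries sat below all 10 saline libraries with a narrow spread. The mean went from 505 ± 65.8 to 294 ± 18.1 CPM, a fall of 41.7% (log2 fold change -0.78 ± 0.11 SE, edgeR adjusted p = 2.27e-05).

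Ndufs4, a phosphorylatable subunit whose loss causes a Leigh-like brain disease in mice, lies on chromosome 13, 114287795 to 114388258. Its libraries stood at 137, 113, 123, 105 and 146 CPM in Het_PBS and at 102, 84.4, 91.8, 78.9 and 89.8 CPM in Het_B12, against 70.8 to 132 CPM in WT_PBS. The vitamin group lay below all Het_PBS libraries. It overlapped the wild types through WT_PBS 3 alone, the other 4 standing at 110 to 132 CPM. The fall was 28.2% (-0.48 ± 0.13, edgeR adjusted p = 0.0227). This call did not hold without Het_PBS 1, Het_PBS 5, Het_B12 2 or Het_B12 4, and without both Het_PBS 5 and Het_B12 1 its adjusted p was 0.0629.

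Ndufa12, which sits at the junction of the arms and replaces the assembly factor Ndufaf2 in the finished complex, stood at -0.38 ± 0.12 (edgeR adjusted p = 0.0529). Ndufs6, a zinc-binding subunit, was at -0.37 ± 0.13 (0.0634). Ndufa5, the most abundant transcript, was at -0.24 ± 0.11 (0.209), from 560 ± 43.8 to 474 ± 102 CPM. None of the 3 passed.

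In the membrane arm 19 of 19 supernumerary subunits were below 0 (median -0.30), and 5 of them fell (26.3%, background 3.79%). With an offset for transcript length 11 were below 0 and 8 above (median -0.04), and without both Het_PBS 5 and Het_B12 1 there were 18 below. Of 20 genes listed for this class 19 had a row in the table of the series. Ndufb1 was not found there under that symbol and was not analysed. Ndufc1, a single-span membrane subunit, lies on chromosome 3, 51404677 to 51408988, minus strand. Its libraries stood at 252, 256, 200, 238 and 256 CPM in WT_PBS, 305, 256, 291, 262 and 270 in Het_PBS and 194, 180, 193, 189 and 190 in Het_B12. The Het_B12 values were tightly grouped and below every saline library, WT_PBS 3 (200 CPM) coming closest. The log2 fold change was -0.55 ± 0.10 (edgeR adjusted p = 0.000672).

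Ndufb8, a distal membrane-arm subunit often used as the marker protein of complex I on blots, lies on chromosome 19, 44548572 to 44555440, minus strand. It stood at 462, 541, 426, 405 and 578 CPM in WT_PBS, 484, 470, 524, 525 and 505 in Het_PBS and 322, 364, 382, 350 and 335 in Het_B12. Here too the vitamin group lay below all saline libraries. The mean fell by 30.1% (-0.52 ± 0.10, edgeR adjusted p = 0.00149).

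The other 3 membrane-arm genes that fell overlapped the wild types. Ndufb2 went from 238, 190, 214, 211 and 261 CPM in Het_PBS to 152, 162, 181, 114 and 145 CPM in Het_B12, against 146 to 249 CPM in WT_PBS (-0.56 ± 0.13, edgeR adjusted p = 0.00723). Ndufc2, the partner of Ndufc1, went from 203, 167, 166, 176 and 230 to 105, 141, 126, 122 and 141 CPM, against 92.9 to 190 in WT_PBS (-0.56 ± 0.14, 0.00904). Ndufb11, an X-linked subunit, went from 147, 117, 159, 123 and 146 to 98.9, 107, 98.2, 89.2 and 101 CPM, against 97.5 to 168 in WT_PBS (-0.48 ± 0.13, 0.0169). In each of the 3 the Het_B12 and Het_PBS libraries did not overlap. Ndufc2 (adjusted p = 0.101) and Ndufb11 (0.0645) were not called without both Het_PBS 5 and Het_B12 1, and Ndufb11 was not called without Het_PBS 3 or without Het_B12 4. Ndufb2 and Ndufb11 overlap Braf and Rbm10 on the opposite strand, which had 6609 reads against 6606 of Ndufb2 and 1823 against 4221 of Ndufb11. Braf was at 0.09 ± 0.12 and Rbm10 at 0.04 ± 0.16 in the same comparison.

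The core subunits, which carry the flavin and the iron-sulfur clusters, were mixed, with 4 of 7 below 0 and a median of -0.03. Ndufs3, a core subunit of the quinone-binding module (chromosome 2, 90894634 to 90904827, minus strand), rose. Its libraries stood at 29.0, 40.3, 32.5, 46.4 and 43.6 CPM in WT_PBS, 33.9, 35.6, 35.2, 37.8 and 34.5 in Het_PBS and 47.4, 55.5, 54.0, 39.5 and 55.1 in Het_B12. The vitamin group lay above Het_PBS, whose libraries were close together, and overlapped the more scattered wild types. The log2 fold change was 0.51 ± 0.16 (edgeR adjusted p = 0.0398). The call held in 13 of 26 alternatives and in 6 of the 15 fits that left out 1 library. Those without any 1 of the 5 Het_PBS libraries, or without Het_B12 1, 2, 3 or 5, lost it, with log2 fold changes of at least 0.47 throughout. Kbtbd4, which overlaps Ndufs3 on the opposite strand, had 12.4% as many reads and stood at 0.44 ± 0.44, on the same side of 0.

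No other core subunit passed. Ndufs8, which holds a pair of iron-sulfur clusters, stood at 108, 107, 117, 116 and 119 CPM in Het_PBS and at 70.5, 94.4, 104, 78.6 and 86.6 CPM in Het_B12, without overlap (-0.38 ± 0.12, edgeR adjusted p = 0.0518). Ndufv2, an iron-sulfur subunit of the NADH module, was at -0.26 ± 0.13 (0.23), and Ndufs1, the largest subunit of the peripheral arm, at -0.20 ± 0.12 (0.353). Eef1b2, which overlaps Ndufs1 on the opposite strand, fell (-0.36 ± 0.11, edgeR adjusted p = 0.0431). Ndufv1, the flavin-binding subunit, was at 0.12 ± 0.11 (0.566), with 178 to 201 CPM in Het_PBS and 181 to 226 CPM in Het_B12. Ndufs7, an iron-sulfur subunit at the quinone site, was at 0.01 ± 0.13 (0.973). Whether the core and the supernumerary subunits differed from each other was not tested.

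**Figure D3:**
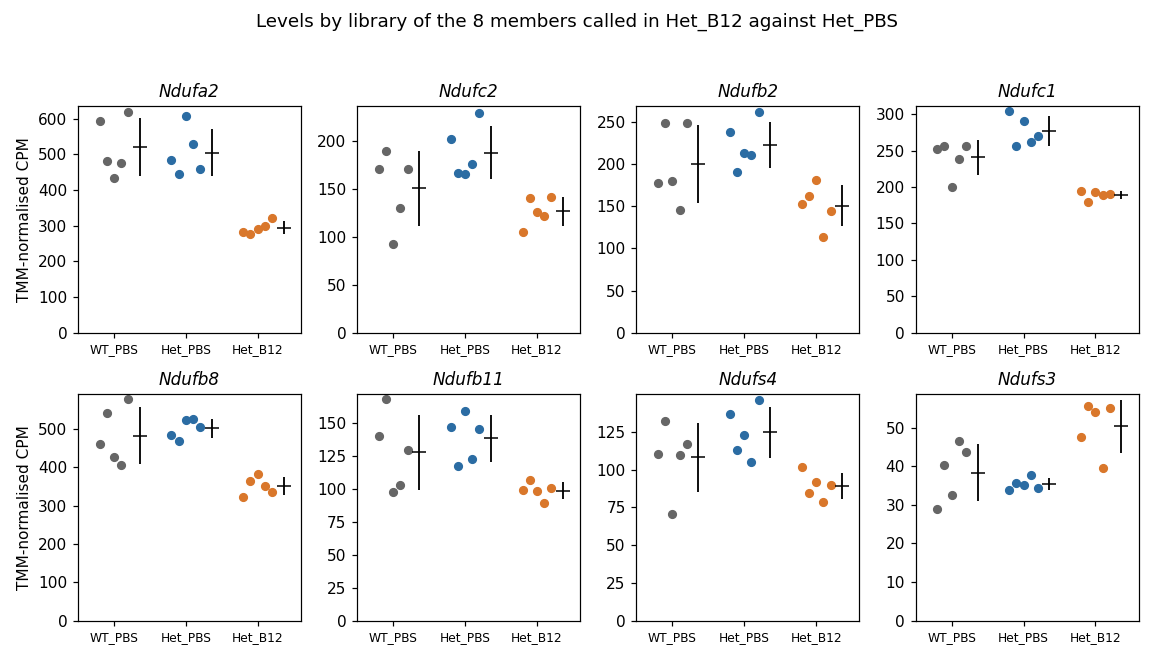
TMM-normalised CPM in each of the 15 libraries (dots), with mean and SD of each group (bars), for the 7 genes that fell and for Ndufs3, which rose, in Het_B12 against Het_PBS. Het_B12 lies below every saline library in Ndufa2, Ndufc1 and Ndufb8, and overlaps WT_PBS in the other 5, in Ndufs4 through WT_PBS 3 alone.

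The assembly factors did not pass in either direction (0 of 8, background 7.26%, median -0.13, 5 below 0). With 8 genes, 0 calls cannot be told from that background. Ndufaf8, the partner of Ndufaf5, had the smallest p-value (-0.32 ± 0.15, edgeR adjusted p = 0.214). Ndufaf4 stood at -0.24 ± 0.16 (0.421), Ndufaf6 at -0.25 ± 0.31 (0.706) and Ndufaf2 at -0.17 ± 0.19 (0.67). Smim15, which overlaps Ndufaf2 on the opposite strand, fell (-0.56 ± 0.14, edgeR adjusted p = 0.00727). At 8.29 to 52.6 CPM in Het_B12 their standard errors, 0.15 to 0.35 on the log2 scale, were wider than the 0.10 to 0.14 of the 7 subunits that fell. Ndufa4 was at -0.23 ± 0.20 (0.545).

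Treated heterozygotes were also set beside saline wild types, a comparison in which genotype and vitamin both differ and which shares its Het_B12 libraries with the one above. By edgeR's test 5 genes were lower (11.1% of 45, background 4.11%) and 0 higher (background 3.22%, or 7.33% in either direction). At an unadjusted p under 0.05, 14 were lower and 3 higher (37.8% of 45, background 21.6%). DESeq2 called 7 and limma-voom 5, in either direction (995 and 934 over all genes). The median was -0.10 against 0.01 for all genes, with 30 of 45 below 0 (66.7%, against 49.2%). The lower genes were Ndufa2 (-0.82 ± 0.11, edgeR adjusted p = 5.84e-06), Ndufb8 (-0.46 ± 0.10, 0.00486), Ndufa12 (-0.52 ± 0.12, 0.0069), Ndufc1 (-0.35 ± 0.10, 0.0323) and Ndufb9, a membrane-arm subunit (-0.34 ± 0.11, 0.0479). Ndufa2, Ndufb8 and Ndufc1 passed in both comparisons with Het_B12, and for these 3 genes (6.67%, background 2.95%) the groups did not overlap, and 0 genes lay wholly above the wild types (background 2.44%).

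Ndufa12 stood at 267, 248, 176, 267 and 283 CPM in WT_PBS, 228, 211, 205, 257 and 228 in Het_PBS and 145, 142, 188, 184 and 208 in Het_B12. WT_PBS 3, at 176 CPM, lay among the treated libraries. Ndufb9 stood at 514, 631, 395, 428 and 438 CPM in WT_PBS, 495, 425, 491, 473 and 455 in Het_PBS and 386, 349, 385, 359 and 416 in Het_B12. Its groups overlapped through WT_PBS 3, at 395 CPM. The calls of Ndufc1 and Ndufb9 depended on single libraries, holding in 7 and 4 of the 15 fits without 1 library. Without WT_PBS 3 the count of lower genes was 11, and without WT_PBS 3 and Het_PBS 5 together it was 13. Over all genes 662 and 745 were lower in these 2 fits, against 482 as reported. Without WT_PBS 1, WT_PBS 5, Het_B12 1 or Het_B12 2 the Nduf count was 3, with 293, 272, 307 and 298 lower over all genes.

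The count for the vitamin moved with the libraries too. It was 14 without WT_PBS 3, a library of neither group, and 4 without both Het_PBS 5 and Het_B12 1. The calls over all genes moved the same way, with 1050 and 437 in these 2 fits against 851 as reported. Ndufa2, Ndufb2, Ndufb8 and Ndufc1 were called in all 26 alternatives. Without the pair that shares a number in the labels their log2 fold changes were -0.80 ± 0.12, -0.50 ± 0.15, -0.48 ± 0.12 and -0.57 ± 0.12, and the median of the 45 was -0.18.

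Nduf transcripts are short, and short transcripts as a whole lay lower in Het_B12. The longest annotated transcript of the 45 tested genes had a median of 1200 bases, against 3604 for all genes tested, and 36 of the 45 were among the 2343 genes with the shortest transcripts (at most 2092 bases), the lowest of 5 equal classes. That class had a median log2 fold change of -0.15 in Het_B12 against Het_PBS, with 9.3% of its genes called lower, and the class of the longest transcripts 0.12, with 1.07% called lower. With an offset for transcript length in the model, the median of the Nduf genes was -0.04, with 26 of 45 below 0 (57.8%), and 5 genes fell. Of all 11712 genes in that fit 373 fell and 279 rose, with a median of -0.01. Ndufa2 (-0.39 ± 0.11), Ndufb8 (-0.46 ± 0.10), Ndufb2 (-0.61 ± 0.13) and Ndufc1 (-0.38 ± 0.10) were still lower and Ndufs3 higher (0.72 ± 0.15), while Ndufb7, a membrane-arm subunit facing the intermembrane space, was lower as well (-0.39 ± 0.12). Ndufc2 (-0.23 ± 0.12), Ndufb11 (-0.23 ± 0.12) and Ndufs4 (-0.38 ± 0.13) did not pass in that fit. The offset uses the longest annotated transcript, which need not be the one expressed. For Ndufb2 and Ndufb7 this is 4371 and 4435 bases, so they were treated as long genes. Both moved further below 0 with the offset, from -0.56 and -0.34 without it.

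Against WT_PBS the same offset gave 4 lower genes (Ndufa2, Ndufa12, Ndufb2 and Ndufb8) and 4 higher ones (Ndufa1, Ndufv3, Ndufaf5 and Ndufs3), where 5 were lower and 0 higher without it. Of all 11712 genes 469 were lower and 312 higher with the offset, against 482 and 377 of 11718 without it. The part of transcript length in these values was not tested beyond this offset.

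**Figure D4:**
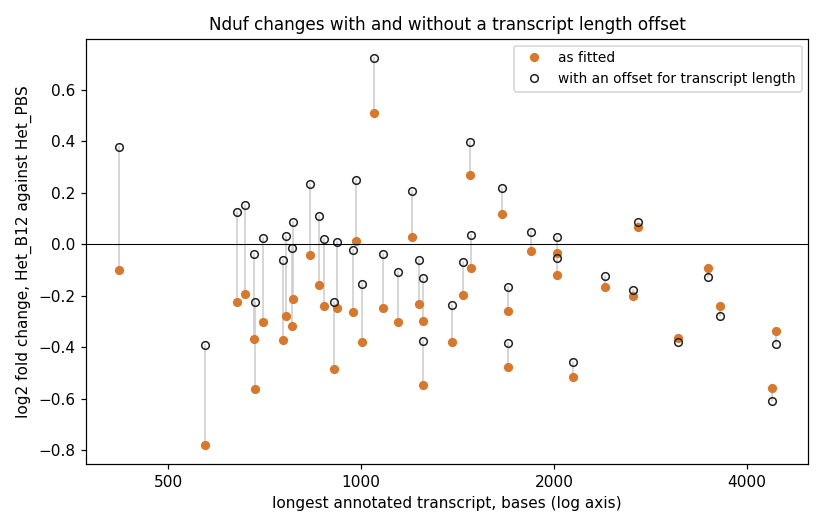
Log2 fold change of Het_B12 against Het_PBS for each of the 45 genes, plotted against its longest annotated transcript (bases, log axis), as fitted (filled) and with an offset for transcript length (open). The median moves from -0.24 to -0.04, and Ndufa2, Ndufb2, Ndufb8 and Ndufc1 pass in both fits.

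Lists of related genes were set beside the nuclear complex I genes in the same comparison of Het_B12 with Het_PBS. Of the 7 complex I core subunits encoded in mitochondrial DNA, 5 were tested and all 5 were below 0 (median -0.49). The 3 that fell (60%, background 3.79%) were mt-Nd1 (-0.49 ± 0.11, edgeR adjusted p = 0.00316), mt-Nd5 (-0.49 ± 0.10, 0.00246) and mt-Nd6 (-0.51 ± 0.16, 0.0389). All 5 were above 0 in Het_PBS against WT_PBS, none of them past the threshold. Of the complex I assembly genes without an Nduf name 7 were tested, with 4 above 0 and 3 below (median 0.08). Of these 1 fell (14.3%, background 3.79%), Tmem126b (-0.62 ± 0.18, 0.0264). In complex II 6 of 7 were below 0 (median -0.33) and 1 fell (14.3%), Sdhb (-0.39 ± 0.11, 0.0299).

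Of the nuclear genes of complexes III, IV and V 11 of 40 were lower (27.5%, background 3.79%) and 0 higher, with a median of -0.27. Whether they differed from the Nduf genes was not tested. Examples were Uqcrh of complex III (-0.78 ± 0.11, 2.53e-05) and Cox7a2 of complex IV (-0.70 ± 0.11, 9e-05). Transcripts of mitochondrial mass and biogenesis did not lie lower as a list (0 lower and 1 higher of 18, median -0.01), and they are longer, with a median of 3329.5 bases against 1065 for complexes III, IV and V and 1200 for the Nduf genes. The 1 that rose was Ppargc1b, a coactivator of mitochondrial genes (0.60 ± 0.18, 0.0293). Cytosolic ribosomal protein genes, whose transcripts are also short (median 1076.5 bases), had 43 of 82 lower (52.4%, background 3.79%) and a median of -0.44.

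Markers of cell types moved in the same comparison, in which 3.79% of all genes were lower and 3.47% higher. Astrocyte markers were lower in 7 of 10 and summed to 7010 ± 419 CPM in Het_PBS and 4795 ± 323 in Het_B12. For microglia 5 of 10 were lower (694 ± 88.4 to 426 ± 31.6 CPM) and for blood 5 of 5 (2222 ± 1706 to 713 ± 223 CPM). Endothelial markers were higher in 5 of the 6 tested of 8 (72.0 ± 14.95 to 179 ± 23.4 CPM), oligodendrocyte markers lower in 2 of 8 (6531 ± 1414 to 5494 ± 722 CPM) and choroid plexus markers called in 0 of 4. Neuron markers were higher in 1 of 10. No list was at 0 in any group. The share of counts at Gm42418, where reads of ribosomal RNA gather, was 11.9% ± 1.78, 8.52% ± 1.73 and 5.29% ± 1.25 in WT_PBS, Het_PBS and Het_B12. The part of these shifts in the complex I result was not tested.

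Library by library, the median log2 difference of the 45 genes from the wild-type mean was 0.06, 0.19, -0.24, -0.16 and 0.09 in WT_PBS, 0.12, 0.08, 0.18, 0.11 and 0.22 in Het_PBS, and -0.10, -0.06, -0.09, -0.25 and -0.05 in Het_B12. All Het_PBS libraries were above 0 and all Het_B12 libraries below it, while the wild types spanned both. WT_PBS 3 and WT_PBS 4, given saline, were lower than all treated libraries but Het_B12 4. WT_PBS 3 was also low for astrocyte markers, with a median of -0.42, and WT_PBS 4 was at -0.02 for them.

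**Figure D5:**
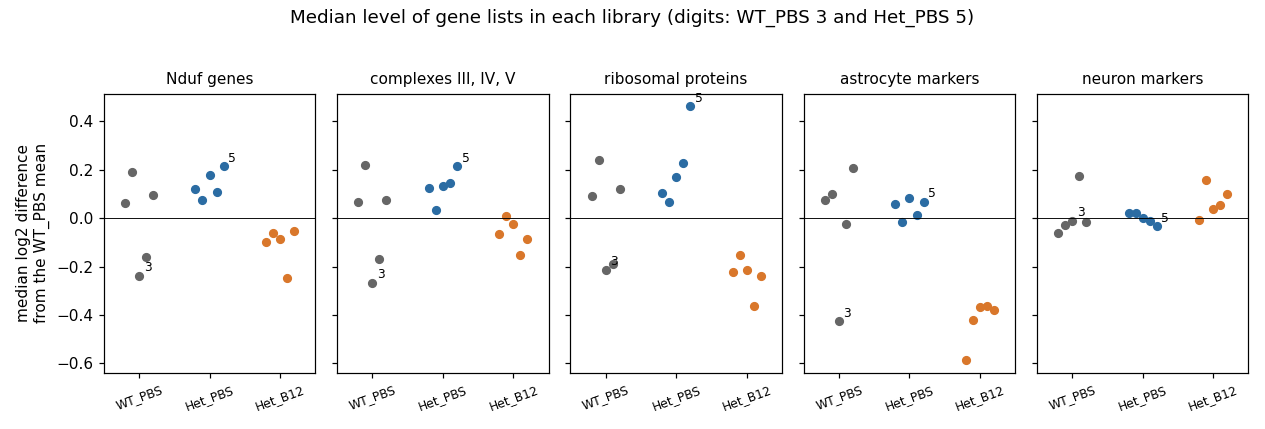
Median log2 difference from the WT_PBS mean in each library for the Nduf genes and 4 comparison lists, each dot 1 library. Nduf medians run from -0.05 to -0.25 in Het_B12, with WT_PBS 3 at -0.24, while neuron markers stay between -0.06 and 0.18 in all 15 libraries.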

How the data were processed

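The deposited data are raw read counts per gene, in 1 table, for 15 brain libraries. QuantSeq 3′ libraries were made, per the labels' protocols, and STAR, HTSeq, edgeR and the mm10 build were used, per the submitters' processing notes. Their versions, the annotation and the strand setting are not stated. Groups and replicate numbers came from the sample titles. That libraries are of separate mice is not stated, so a p-value measures the spread among libraries, which may be technical. Where the counts are low, floors cover counting error only.

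Counts were fitted in R 4.3.3 with edgeR 4.0.16: filterByExpr (11718 genes kept), TMM factors, 1 mean per group over all 15 libraries (12 residual degrees of freedom, biological coefficient of variation 0.181), glmQLFTest, and Benjamini-Hochberg adjustment over all genes tested. A gene was called at an adjusted p under 0.05. CPM are TMM-normalised. Coordinates and lengths came from GENCODE M21 (GRCm38, which mm10 names) and promoters from RefSeq. Of simulated 2-fold changes, 78%, 68% and 63% were recovered for Het_PBS against WT_PBS, Het_B12 against Het_PBS and Het_B12 against WT_PBS, and of 1.5-fold changes 33%, 33% and 38%, over 11718 genes. False calls made up 5.13%, 7.34% and 7.34% of the simulated calls, in the same order.

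Alternatives were DESeq2 1.42.0 (its test, or its size factors), upper-quartile factors, no filter or a mean count of at least 50, limma-voom (3.58.1), a fit of just the compared groups, a replicate block, a lowess offset for transcript length, each library left out, and 2 pairs left out. Genes named were those called in any comparison, up to 4 per class with the smallest p in Het_B12 against Het_PBS, the 2 highest and 2 lowest, and those not tested. Further Nduf genes were named as core subunits or for the smallest p in Het_PBS against WT_PBS. Some were named for a motif, an uncertain count, an alternative fit or a flag. Of other lists, called genes were named in full, named as examples or counted only. 1 of the 46 genes is counted but not reported here by name or plotted by name. The genes, lists and rules were chosen with earlier results of these data known.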

Additional observations from a re-analysis of the deposited data

Results flagged for a closer look

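In 7 of 138 groups of 5 libraries (each tested gene and the summed level, in 3 groups), 1 library stood farther from its group than Dixon's 95% criterion of 0.71 allows, and chance alone gives about 1 in 20. Ndufa1, a small X-linked membrane-arm subunit, was at 125 CPM in WT_PBS 2, against 55.2 to 64.9 in the other wild types, and at 169.5 CPM in Het_B12 2, against 64.1 to 92.5 in the other treated libraries. Ndufb3 was at 362 CPM in Het_PBS 5, against 199 to 208. In the same library Ndufb7 was at 126 CPM, below the 146 to 154 of the others. Ndufa9, a peripheral-arm subunit, was at 75.5 CPM in Het_PBS 3, against 97.2 to 106. The assembly factor Ndufaf5 was at 14.9 CPM in Het_B12 1, against 26.7 to 31.0, and Ndufs6 at 177 CPM in Het_B12 5, against 133 to 144. None of these genes was called in the 3 comparisons as reported. With the transcript length offset Ndufb7 was lower in Het_B12 than in Het_PBS (-0.39), and Ndufa1 (0.75) and Ndufaf5 (0.70) were higher than in WT_PBS.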

How the results depend on the processing

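Under 26 alternatives no called gene reversed its direction, and 285 of 338 values of the 13 calls kept their side of the threshold. Against WT_PBS under saline 1 Nduf gene (Ndufb3) passed without a filter on low counts and 0 in the other 25 fits. For Het_B12 against Het_PBS the count of 8 was 15 with only the compared groups fitted, 4 without both Het_PBS 5 and Het_B12 1, and 6 to 14 without single libraries, 14 being without WT_PBS 3. Over all genes the 851 calls became 1100, 437 and 551 to 1050. The Nduf median of -0.24 was -0.038 with the transcript length offset. For Het_B12 against WT_PBS the count of 5 was 8 with that offset, 13 without both WT_PBS 3 and Het_PBS 5, and 3 to 11 without single libraries. Over all genes the 859 calls became 781, 1390 and 449 to 1270. The cause of these shifts was not tested.

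Replicate numbers were not used as pairs in the fit as reported. Of 15 same-numbered pairs 1 correlated over 0.1 (range -0.09 to 0.11), and 5 of 15 libraries correlated best with their own number. The median correlation was 0.03 for same-numbered pairs and -0.0009 for the others. Whether the numbers mark pairs was not tested. With the replicate block the counts were 0, 8 and 4 (0, 830 and 800 over all genes), and Ndufs3 was not called. Nduf medians without single libraries ran from 0.06 to 0.15, -0.29 to -0.20 and -0.20 to -0.08. Of simulated 1.5-fold changes 33% to 38% were recovered, and of 2-fold changes 63% to 78%. Changes of these sizes, and smaller ones, could thus be missed among the 11718 genes tested. Recovery in the Nduf genes alone was not tested.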
